A study of Homo sapiens with 3 samples.

Results

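Messenger RNA of 3 samples was profiled, each on 1 Affymetrix U133 Plus 2.0 array. The genes described here are those of the mitochondrial route to apoptosis around DIABLO: the antagonists DIABLO and HTRA2, the inhibitor of apoptosis (IAP) genes XIAP, BIRC2, BIRC5, BIRC6 and BIRC7, and the apoptosome genes APAF1, CASP9 and CYCS. They were listed by name around DIABLO, whose amplification and expression in NGP were already known from these samples, and all 10 of the 10 listed genes were found among the 19775 genes measured, with 27 probe sets that each name only that gene. IMR-32 and NGP are established neuroblastoma cell lines, both untreated and grown in their regular medium. Each stands for 1 tumor-derived line only. By the study's copy number data, which were not analysed here, both carry MYCN amplification, and NGP also carries an amplicon at 12q24.31 that contains DIABLO. The Reference was 1 pooled sample of untreated cells of 16 different cancer cell lines, so a level in it is an average, in which a few lines with much of a transcript and many lines with little cannot be told apart.

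In cells committed to die by the mitochondrial route, the outer mitochondrial membrane becomes permeable and cytochrome c, the product of CYCS, enters the cytosol. There it binds APAF1, which assembles into the apoptosome and activates caspase 9, the product of CASP9, and this in turn activates effector caspases. XIAP binds and blocks caspases directly, while the other IAP proteins act mostly as ubiquitin ligases or in other ways. DIABLO, also called Smac, and HTRA2, a serine protease, leave the mitochondria together with cytochrome c and bind IAP proteins through their exposed N-terminal residues, which frees the caspases. Neuroblastoma arises from precursors of the sympathetic nervous system.

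Among these 10 genes, those that differed most between NGP and IMR-32 in each direction were DIABLO, which was higher in NGP, and BIRC2, which was lower. Their promoter windows are shown because of this, and so the pair was chosen after the values were seen. Each window holds 250 bases before and 50 bases after the gene start in RefSeq (build GRCh38.p14), written 5′ to 3′ on the strand of the gene. Capitals mark CACGTG, the E-box bound by MYC family proteins, and GGGCGG, the GC box, on either strand. The DIABLO window is chr12:122226519-122226818 on the minus strand, and the BIRC2 window is chr11:102346964-102347263 on the plus strand.
DIABLO: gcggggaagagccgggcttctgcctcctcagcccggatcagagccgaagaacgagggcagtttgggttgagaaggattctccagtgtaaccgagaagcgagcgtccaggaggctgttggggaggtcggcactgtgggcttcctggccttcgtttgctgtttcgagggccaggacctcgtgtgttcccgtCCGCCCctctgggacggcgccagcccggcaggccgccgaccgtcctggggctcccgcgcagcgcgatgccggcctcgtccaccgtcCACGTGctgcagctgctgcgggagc
BIRC2: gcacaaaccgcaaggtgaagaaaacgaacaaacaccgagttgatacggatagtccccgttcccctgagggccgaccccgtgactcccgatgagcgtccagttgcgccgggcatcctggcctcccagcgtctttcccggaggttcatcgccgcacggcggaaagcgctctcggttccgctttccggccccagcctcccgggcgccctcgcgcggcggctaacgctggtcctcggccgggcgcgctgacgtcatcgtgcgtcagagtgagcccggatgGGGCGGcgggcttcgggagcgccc

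The DIABLO window has a GC box at bases 190 to 195 and an E-box at bases 276 to 281, counted from 1 at its 5′ end, so the E-box lies after the gene start. The BIRC2 window has a GC box at bases 277 to 282 and no E-box. Windows were given for 9 of the 10 genes. BIRC5 had none, so it was not searched for any of these sequences. Among the 9, an E-box was found in 2, DIABLO and BIRC7, against 7.43% of all 27305 windows in the table. A GC box was found in 6 of the 9, against 44.6% of all windows. CASP9 had 8 of them, some of which overlap, and BIRC6 had 2. The sequence TTTGAA, a cell cycle element named CHR, and the TATA box TATAAA were found in 0 of the 9 windows and in 15.4% and 12.0% of all windows. These matches of letters describe the sequence, and no binding was measured here.

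All values are MAS5 signals on a linear scale, and expression ratios were calculated as log2 of 1 signal over another. The array medians were 89.9 in IMR-32, 98.8 in NGP and 119 in the Reference, and a signal below the median of its array is called dim here. Where dim probe sets are left out of a ratio, a probe set stays if the higher of its 2 signals reaches its array median. Where a gene has several probe sets, their median ratio is its value. The terms over- and underexpressed are used for the 7% of genes with the highest and the 7% with the lowest ratios of a comparison. The cut-offs were 1.84 and -2.88 for NGP over Reference, 1.68 and -2.83 for IMR-32 over Reference, and 1.95 and -1.84 for NGP over IMR-32. The median ratios of all genes were -0.22, -0.23 and 0.02. With 1 array per sample no test across arrays exists and no p-value is given. The spread that can be seen is that between probe sets of the same gene, with a pooled standard deviation (SD) of 1.41, 1.31 and 1.28 in these comparisons, or of 0.65, 0.57 and 0.52 over probe sets at or above the array median in both samples. It holds no variation between arrays or cultures, and a gene with 1 probe set has no such spread of its own. Both comparisons over the Reference use the same Reference array. As to the labels, 7 of 7 measured sympathoadrenal markers were overexpressed in NGP and 4 of 7 in IMR-32, where TH was at -1.40 and DBH at -0.33, and all 5 epithelial markers were underexpressed in both lines, with ratios from -8.70 to -5.78. Of 4 mesenchymal markers, all were below 0 in both lines, with medians of -2.41 in NGP and -2.50 in IMR-32, and 2 were underexpressed in NGP and 1 in IMR-32. Of 4 haematopoietic markers 1, LAPTM5, was underexpressed in both. The part of such RNA in the Reference in the ratios given here was not tested.

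Of the 10 genes, 1 was overexpressed in NGP over the Reference, DIABLO, and 0 were underexpressed, beside the 7% of genes that each cut-off passes. In IMR-32 over the Reference, 0 of the 10 were overexpressed and 0 underexpressed, again beside 7% of all genes in each direction. In NGP over IMR-32 the count was 1 overexpressed, DIABLO, and 0 underexpressed, with the same 7% in each direction. A count of 1 or 0 in 10 is near what these shares give, so the list as a whole did not stand apart. Its median ratio was 0.04 in NGP and 0.10 in IMR-32 over the Reference, beside -0.22 and -0.23 for all genes, and 0.30 for NGP over IMR-32, beside 0.02. Of the 27 probe sets, 13 were highest in NGP, 10 in the Reference and 4 in IMR-32, and 19 were higher in NGP than in IMR-32. On all 3 arrays 21 of them reached the array median, and 2 did so on no array.

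**Figure D1:**
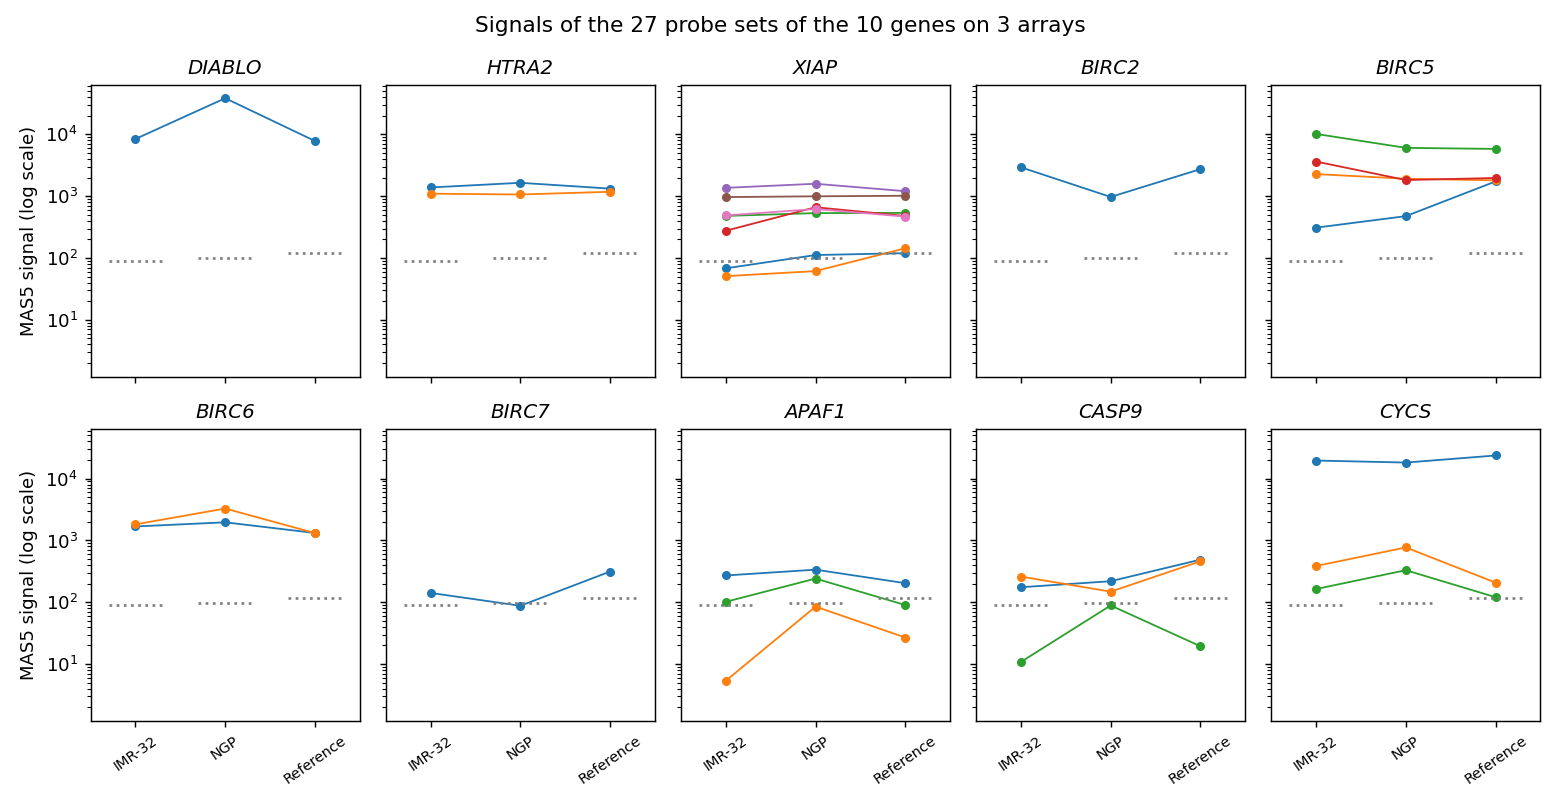
MAS5 signal (y-axis, log scale) of each probe set of the 10 genes on the IMR-32, NGP and Reference arrays (x-axis), with 1 coloured line per probe set and the array medians as dotted bars. DIABLO peaks in NGP at 38546, BIRC2 is lowest in NGP at 973, and the lowest probe sets of APAF1 and CASP9 lie below the array median on every array.

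DIABLO had a signal of 38546 in NGP, 8438 in IMR-32 and 7823 in the Reference, from the single probe set 219350_s_at. NGP stood far above the other samples, which lay close together. The log2 ratio was 2.30 for NGP over the Reference (4.93-fold), 0.11 for IMR-32 over the Reference (1.08-fold) and 2.19 for NGP over IMR-32 (4.57-fold). Relative to the median of all genes, NGP was higher than the Reference by 2.53. Both NGP ratios exceed the spread between probe sets of a gene, 0.65 and 0.52 among probe sets that are not dim. The gene ranked 894th of 19775 in NGP over the Reference and 1103rd in NGP over IMR-32. The genes above it include many with dim signals, whose ratios vary widely. Among the 852 probe sets at least as bright as DIABLO in the Reference, its NGP ratio ranked 3rd, and among the 809 at least as bright in IMR-32 it ranked 2nd. These sets start at the signal of DIABLO itself, so it is the weakest in each. Brighter probe sets had less room to rise, as the highest NGP signal was 76221, so these ranks are only a description.

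The DIABLO value has limits of its own. It is below the NGP over Reference cut-off taken over all probe sets (2.34) and below the NGP over IMR-32 cut-offs over all probe sets (2.32) and over the top 5% of genes (2.29). In RefSeq the gene overlaps B3GNT4, LOC128125816 and LOC101593348. The B3GNT4 and LOC101593348 ratios were also raised in NGP over the Reference, at 2.82 and 5.50, and their part in the DIABLO signal was not tested.

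**Figure D2:**
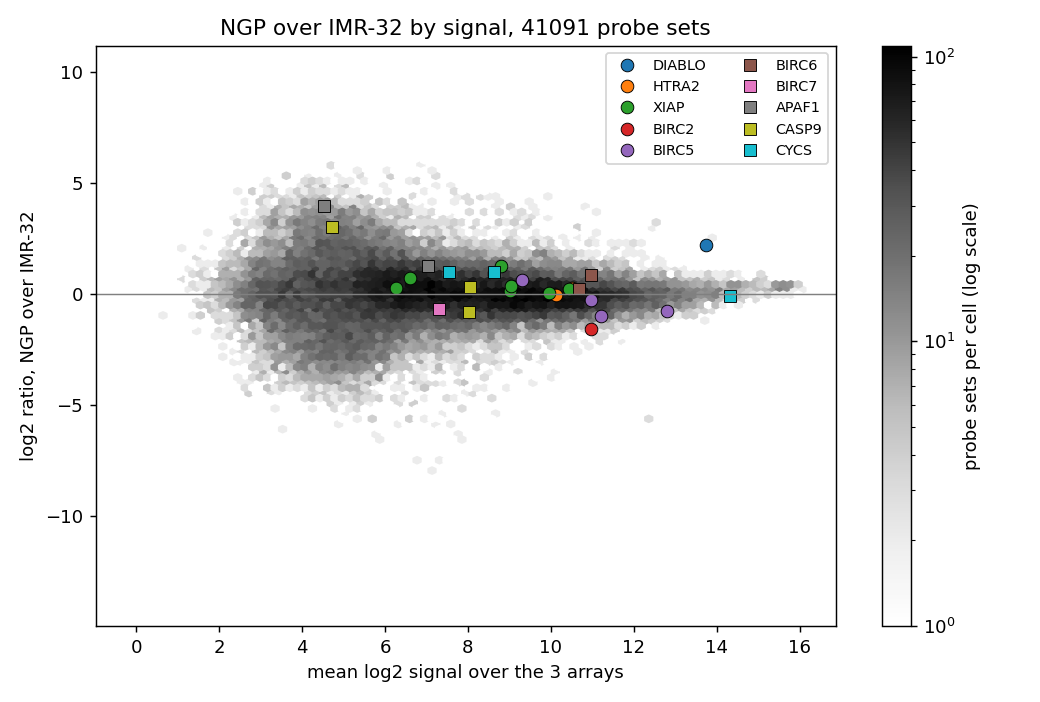
Log2 ratio of NGP over IMR-32 (y-axis) against the mean log2 signal over the 3 arrays (x-axis) for 41091 probe sets (grey, darker where more probe sets lie) and for the probe sets of the 10 genes (coloured symbols). DIABLO, at 2.19, and BIRC2, at -1.59, lie at the edge of the cloud at their signals, while ratios of similar or larger size are common among dim probe sets on the left.

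HTRA2, the other IAP antagonist, did not follow DIABLO. Probe set 203089_s_at read 1386 in IMR-32, 1649 in NGP and 1328 in the Reference, and 211152_s_at read 1099, 1067 and 1180. No sample stood out in either. The gene ratio was 0.08 for NGP and -0.02 for IMR-32 over the Reference, and 0.10 for NGP over IMR-32, with SDs between the 2 probe sets of 0.32, 0.12 and 0.21. The difference between DIABLO and HTRA2 in their NGP over IMR-32 ratios was 2.09.

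Of the 5 IAP genes, 0 were over- or underexpressed in any comparison, beside 7% of all genes in each direction. For so few genes this count is near what these shares give. BIRC2, which encodes cIAP1, a ubiquitin ligase of TNF receptor and NF-κB signalling, had the lowest NGP over IMR-32 ratio of the 10 genes. Its signal was 973 in NGP, 2940 in IMR-32 and 2744 in the Reference, from the single probe set 202076_at, so that NGP was low and the other samples were alike. The ratio was -1.50 for NGP over the Reference (2.82-fold lower) and -1.59 for NGP over IMR-32 (3.02-fold lower), against 0.10 for IMR-32 over the Reference. None of these passed a cut-off, although -1.59 is beyond the spread between probe sets that are not dim (0.52). In NGP over IMR-32 BIRC2 was 1738th from the bottom of 19775 genes, and 111th from the bottom among the 2750 probe sets at least as bright in IMR-32. It passed the lower cut-off of that comparison with log2(signal + 32), where the ratio was -1.56 and the cut-off -1.06, and with the bottom 10% of genes (cut-off -1.45).

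XIAP, the caspase-binding member, had 7 probe sets and changed little. The brightest, 228363_at, read 1367 in IMR-32, 1591 in NGP and 1206 in the Reference. The largest difference between the lines was at 225859_at, with 276 in IMR-32, 663 in NGP and 478 in the Reference. The gene ratio was -0.01 for NGP and -0.16 for IMR-32 over the Reference, with SDs between probe sets of 0.59 and 0.61. All 7 probe sets were higher in NGP than in IMR-32, by 0.04 to 1.27 with a median of 0.27, which is less than their SD of 0.43.

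BIRC5 encodes survivin, which acts in chromosome segregation as well as in cell survival. Of its 4 probe sets, 202095_s_at read 10187 in IMR-32, 6062 in NGP and 5826 in the Reference, 210334_x_at read 3637, 1829 and 1974, and 202094_at read 2279, 1918 and 1807. IMR-32 was the highest sample in all 3. The remaining probe set, 1555826_at, read 310 in IMR-32, 476 in NGP and 1737 in the Reference, with IMR-32 lowest. The gene ratios were 0.57 for IMR-32 and -0.03 for NGP over the Reference, and -0.50 for NGP over IMR-32, each within the SD between its probe sets (1.60, 0.94 and 0.71). Without _s_at and _x_at probe sets, which can match several transcripts, the IMR-32 value was -1.08 and NGP over IMR-32 was 0.19, so no direction is read for BIRC5.

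BIRC6, a very large IAP that joins ubiquitin-conjugating and ligase activity, was highest in NGP in both of its probe sets. They read 1967 and 3288 in NGP, 1685 and 1821 in IMR-32, and 1322 and 1316 in the Reference, so both lines lay above the pool. The gene ratio was 0.95 in NGP and 0.41 in IMR-32 over the Reference and 0.54 for NGP over IMR-32, below the cut-offs, with SDs of 0.53, 0.08 and 0.45. BIRC7, known as livin and as a melanoma IAP, was lower in both lines in its single probe set, 220451_s_at, and so has no spread of its own. Its signal was 314 in the Reference, 142 in IMR-32 and 87.8 in NGP, the last of which is dim. The ratio was -1.15 in IMR-32 (2.22-fold lower) and -1.84 in NGP (3.58-fold lower), neither beyond a cut-off, and -0.69 for NGP over IMR-32. Over the 5 IAP genes together, the median was -0.03 in NGP and 0.10 in IMR-32 over the Reference, and -0.50 for NGP over IMR-32. The last is the value of BIRC5 itself, so no direction is read from it.

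**Figure D3:**
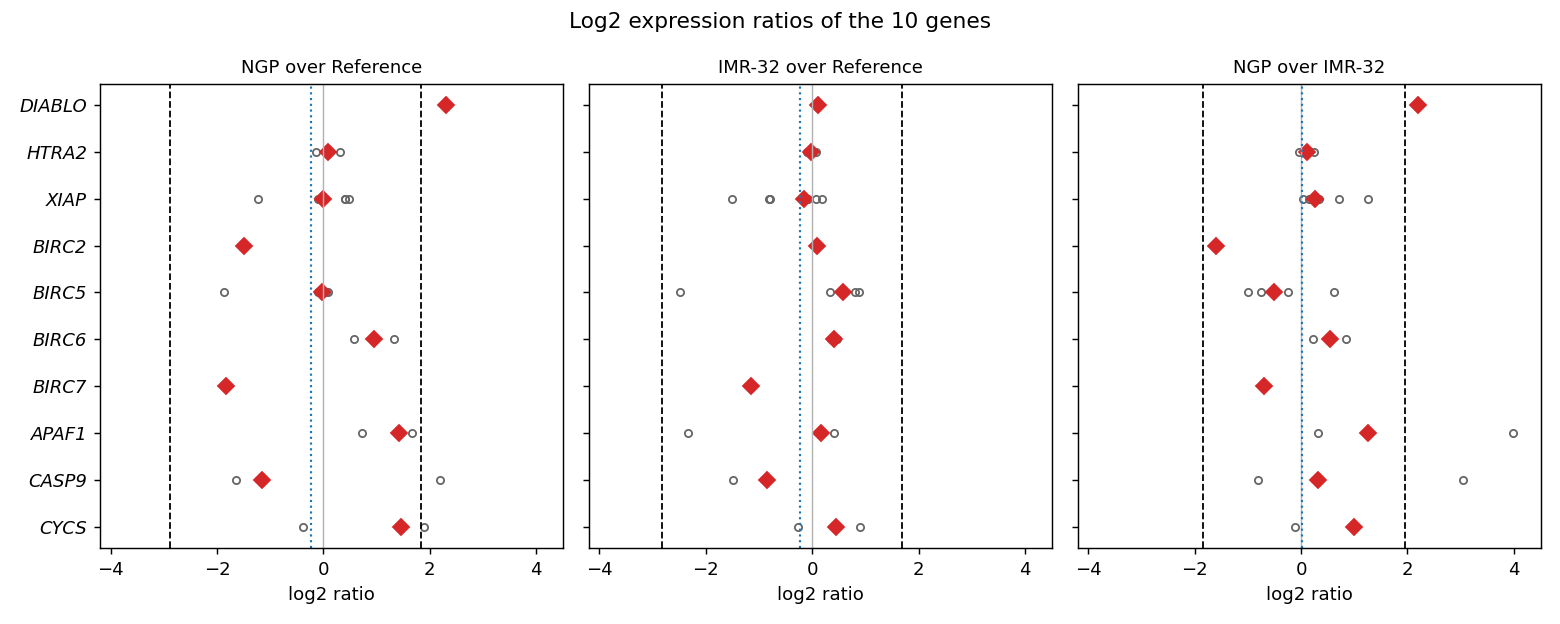
Log2 ratios (x-axis) of the 10 genes (y-axis) in the 3 comparisons, with probe sets as open circles, the gene value as a red diamond, the cut-offs as dashed lines and the median of all genes as a dotted blue line. Among gene values DIABLO alone lies beyond a cut-off, in both comparisons with NGP as numerator, and BIRC2 at -1.59 is the nearest to the lower cut-off of NGP over IMR-32. Single probe sets of APAF1, CASP9 and CYCS also lie beyond an upper cut-off.

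Among the apoptosome genes, APAF1 and CYCS had positive ratios in NGP and CASP9 a negative ratio over the Reference. APAF1 was highest in NGP in all 3 probe sets. Probe set 204859_s_at read 337 in NGP, 271 in IMR-32 and 204 in the Reference, and 211554_s_at read 242, 102 and 90.3. At 211553_x_at the signals of 85.1 in NGP, 5.36 in IMR-32 and 26.9 in the Reference were all dim. The gene ratio was 1.42 in NGP (2.68-fold) and 0.17 in IMR-32 over the Reference, and 1.25 for NGP over IMR-32 (2.38-fold). The SD between probe sets was 0.49 for NGP over the Reference but 1.91 for NGP over IMR-32. With dim probe sets left out the NGP values were 1.07 and 0.78, and with the brightest alone 0.73 and 0.31, all in the same direction and below the cut-offs.

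CYCS gave different answers by probe set. The bright probe set 208905_at read 18225 in NGP, 19654 in IMR-32 and 23718 in the Reference, with the lines slightly below the pool. The other probe sets, 229415_at and 244546_at, read 771 and 331 in NGP, 386 and 164 in IMR-32, and 208 and 121 in the Reference, with NGP highest in both. The gene ratio, 1.45 in NGP and 0.44 in IMR-32 over the Reference and 1.00 for NGP over IMR-32, follows the weaker pair. The bright probe set alone gave -0.38, -0.27 and -0.11. CYCS has many processed pseudogenes that resemble its transcript, and which transcripts each probe set reads was not tested.

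CASP9 was lower than in the Reference in both lines in its brighter probe sets. Probe set 203984_s_at read 490 in the Reference, 219 in NGP and 175 in IMR-32, and 210775_x_at read 461, 148 and 261. They order the lines differently. The remaining probe set, 240437_at, was dim on all arrays, with 88.8 in NGP, 10.8 in IMR-32 and 19.4 in the Reference, and it alone put NGP above the pool, by 2.19. The gene ratio was -1.16 in NGP and -0.84 in IMR-32 over the Reference, short of the cut-offs, and 0.32 for NGP over IMR-32, where the SD between probe sets was 1.98. With the dim probe set left out the values over the Reference were -1.40 and -1.15, and that of NGP over IMR-32 was -0.24, so the order of the lines is not settled.

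Each gene was then set beside the 10 nearest measured genes on either side in RefSeq gene order. DIABLO was listed because it lies in the amplicon, so the values of its neighbours are a description. The neighbours of DIABLO were high with it. In NGP over the Reference their median was 2.76, with 15 of 20 overexpressed and 0 underexpressed, and 13 of the 20 had a ratio above that of DIABLO. In IMR-32 over the Reference the median of the same genes was -0.16, close to the 0.11 of DIABLO, and in NGP over IMR-32 it was 2.59. DIABLO thus lay 0.45 below its neighbours' median in NGP over the Reference, within the SD of 1.70 between these neighbours. On its sides B3GNT4, a glycosyltransferase gene, was at 2.82 and VPS33A, a vacuolar sorting gene beyond LOC101593348, at 3.18.

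BIRC2 lies on the long arm of chromosome 11, and by the study's copy number data in the part lost in NGP. Some genes at the proximal end of its window may lie outside that loss, which was not tested. The median of its 20 neighbours was -1.05 in NGP and -0.86 in IMR-32 over the Reference, beside -1.50 and 0.10 for BIRC2. Without dim probe sets 10 neighbours had a value in each line over the Reference, and the medians were -2.18 in NGP and -0.38 in IMR-32. That rule keeps genes bright in the Reference and low in a line, such as PGR at -6.16 in NGP, so no direction is read from these medians. In NGP over IMR-32 the neighbours' median was 0.25, but many are matrix metalloproteinase genes with dim signals. For the 7 neighbours with a value when dim probe sets were left out, it was -0.64, with 5 of 7 below 0, and with 20 neighbours on each side instead of 10 the median over all was -0.12. The genes on its sides, YAP1, a Hippo pathway coactivator, and TMEM123, had ratios of -2.42 and -0.64, and BIRC3 was not analysed here.

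CASP9 lies on the distal short arm of chromosome 1, a region lost in IMR-32 by the same data. The median of its neighbours was -0.94 in IMR-32 over the Reference, with 18 of 20 below 0, near the -0.84 of CASP9 itself. In NGP over the Reference the neighbours' median was 0.02, and CASP9, at -1.16, had 15 of 20 neighbours above it. NGP over IMR-32 was 0.69 for the neighbours and 0.32 for CASP9.

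By their median over probe sets, APAF1 and CYCS had NGP ratios above those of nearly all genes around them. APAF1 lies on 12q but outside the amplicons. The median of its 20 neighbours was -0.16 in NGP over the Reference and -0.31 in NGP over IMR-32, with 1 of 20 above APAF1 in each. With its brightest probe set APAF1 was lower, at 0.73 and 0.31. Its SD between probe sets in NGP over IMR-32 was 1.91, so this place among the neighbours depends on the probe set. For CYCS the neighbours had medians of 0.16 and -0.25, with 1 and 3 of 20 above it, although its bright probe set, at -0.38 and -0.11, was not raised. For BIRC6, 3 of 20 neighbours had a higher ratio in NGP over the Reference. For HTRA2, XIAP, BIRC5 and BIRC7, the difference from the neighbours' median in that comparison lay between -1.17 and 0.53, within the SD of the neighbours in each case.

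**Figure D4:**
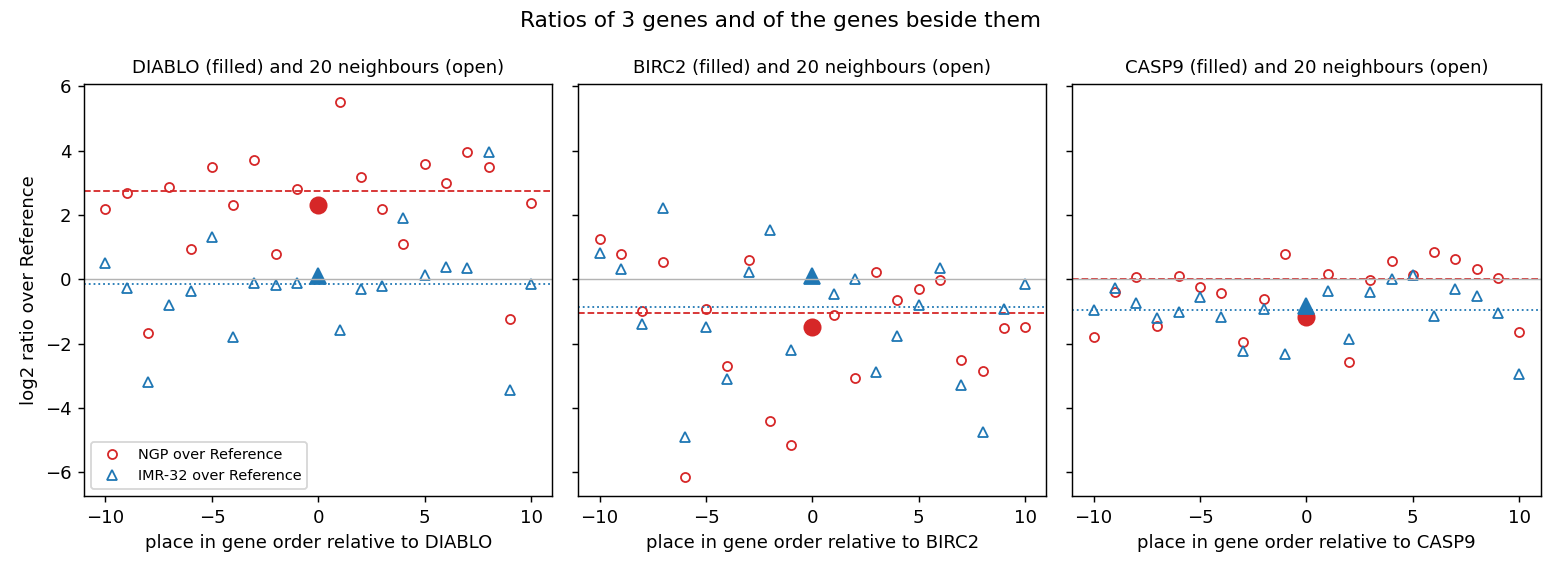
Log2 ratio over the Reference (y-axis) of DIABLO, BIRC2 and CASP9 (filled symbols at 0) and of their neighbours by place in the gene order (x-axis, open symbols), in NGP (red circles) and IMR-32 (blue triangles), with the neighbours' medians as lines (NGP dashed, IMR-32 dotted). Around DIABLO most NGP values lie near the median of 2.76 and most IMR-32 values near -0.16, while around CASP9 the IMR-32 median of -0.94 lies below the NGP median of 0.02.

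Expressed as differences between log2 ratios, the shift of DIABLO against each of its binding partners can be compared without setting the level of a probe set against that of another. The NGP over IMR-32 ratio of DIABLO exceeded that of BIRC6 by 1.65, XIAP by 1.92, BIRC5 by 2.69, BIRC7 by 2.88 and BIRC2 by 3.79. The last corresponds to a 13.8-fold difference between the fold changes of both genes. Each difference includes the ratio of DIABLO itself, 2.19. No direction was read for BIRC5, and BIRC7 has 1 probe set, which was dim in NGP, so their differences are uncertain too. Against the apoptosome genes the difference was 0.94 for APAF1, 1.19 for CYCS and 1.87 for CASP9. These rest partly on weak probe sets, and with the brightest probe set of each gene the differences were 1.88 for APAF1 and 2.30 for CYCS. In IMR-32 over the Reference the same differences were small for all but BIRC7 (1.26) and CASP9 (0.95), and lay between -0.46 and 0.27 for the others.

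Of 22 further genes of the pathway, 17 were measured with probe sets of their own, and 0 of the 17 were over- or underexpressed in any of the 3 comparisons, beside 7% of all genes in each direction. Their median ratio was -0.03 in NGP and -0.22 in IMR-32 over the Reference and 0.05 for NGP over IMR-32. The others were not analysed here. The highest value in NGP over the Reference was that of AURKB, the kinase of the chromosomal passenger complex to which survivin belongs, at 1.36, against 0.15 in IMR-32. Its partners INCENP and CDCA8 were at -0.03 and 0.33 in NGP and at -0.21 and -0.48 in IMR-32. ANP32A, which promotes apoptosome activity, was at 1.22 in NGP and 1.38 in IMR-32, and PTMA, which restrains it, was at 0.19 and 0.28.

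The effector caspase gene CASP6 was low in both lines, at -1.41 in NGP and -1.23 in IMR-32. PARL, the mitochondrial protease that processes DIABLO, was at -0.84 and -0.80, and HAX1, a partner and substrate of HTRA2, at -0.40 and -0.22. AIFM1, another protein released from mitochondria, was at 0.04 in NGP and -1.13 in IMR-32, and ENDOG at 0.34 and -0.09. HCCS, which attaches haem to cytochrome c, was at -0.57 and -0.62. Of the genes that act on IAP proteins, GSPT1 was at 0.91 and 0.72, XAF1 at -0.35 and -1.0, and SEPTIN4 at -1.04 in NGP and 0.41 in IMR-32. All signals of SEPTIN4 were dim, and those of XAF1 were dim in both lines. UBA6, the activating enzyme that works with BIRC6, was at 0.21 and -0.59, TAB1, which binds XIAP, at -0.38 and -0.25, and the IAP gene NAIP at -0.44 and -0.08. Some of these turn with the probe set. With the brightest probe set GSPT1 was at -0.39 in NGP and -1.05 in IMR-32 and UBA6 at -0.19 in NGP, and without _s_at and _x_at probe sets NAIP was at 1.79 in NGP and 1.12 in IMR-32.

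**Figure D5:**
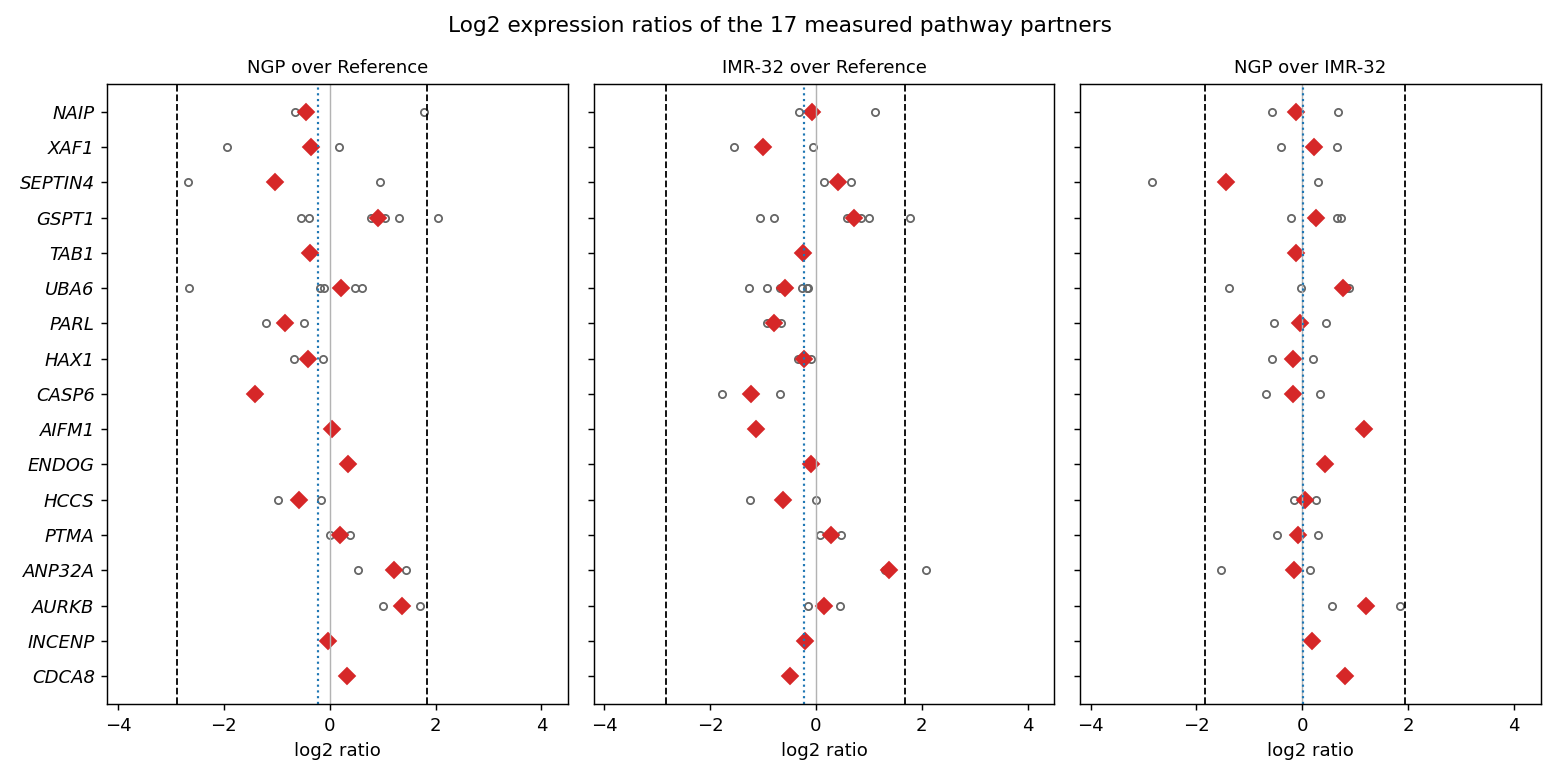
Log2 ratios (x-axis) of the 17 measured pathway partners (y-axis) in the 3 comparisons, with probe sets as open circles, the gene value as a red diamond, the cut-offs as dashed lines and the median of all genes as a dotted blue line. No gene value lies beyond a cut-off, the values spanning -1.41 to 1.36 in NGP over the Reference.

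The pattern of DIABLO, high in NGP and level between IMR-32 and the Reference, was set against that of 13312 other genes whose highest signal reached its array median. The 5 nearest by distance between their pairs of ratios over the Reference were LYL1, CCDC150, ARC, IRS2 and TOX, at distances of 0.02 to 0.15. IRS2, an adaptor of insulin signalling, read 3729 in NGP, 770 in IMR-32 and 697 in the Reference. The signals of LYL1 were 140, 30.3 and 28.1, so this likeness rests on dim values in 2 samples. The same holds for ARC, at 265, 55.7 and 53.7. CCDC150 was dim in IMR-32, at 79.3, and TOX in the Reference, at 66.9. None of the 5 is among the 20 neighbours of DIABLO. With 3 arrays, many genes share so simple a pattern, and the likeness is given as a description.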

How the data were processed

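RNA from IMR-32, NGP and the Reference pool was hybridized to 1 array each. The authors deposited linear intensities, computed by MAS5 in affy (Bioconductor; version unstated). The trimmed mean of every array, 2% removed at both ends, was 500, and no signal was at or below 0. Of 54675 probe sets, 62 controls, 1801 naming several genes and 11721 naming none were left out. Symbols of 41037 of the other 41091 were updated by gene ID to RefSeq (GRCh38.p14), which also gave gene order (19719 genes). Log2 ratios were taken without a pseudocount. The genes, partner list, markers and alternatives were chosen with earlier results of these data known. The text names the 10 genes, 22 partners, flanking genes and the 5 genes of nearest pattern, and the widths of 5 and 20 neighbours and the ranks among bright probe sets were added after seeing the data. Only the ratios and calls of NGP over the Reference were tested on simulated data, with shifts larger than those of DIABLO and BIRC2. The neighbour, pattern and promoter steps were not tested in this way. The number of arrays limits the precision. Computation used pandas 2.3.3 and numpy 2.4.6 under Python 3.11.15, and figures used matplotlib 3.10.9.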

Additional observations from a re-analysis of the deposited data

Results flagged for a closer look

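BIRC2 had log2 ratios over the Reference of opposite sign in its only probe set, -1.50 in NGP and 0.10 in IMR-32. The IMR-32 value is within the spread between probe sets of a gene (0.57), so no change is read from it. The difference between them was -1.59, and it was not tested, since each line has 1 array.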

How the results depend on the processing

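Of 10 alternatives, 3 change only the cut-offs. Under the other 7, 195 values of the 10 genes could be computed, of which 57 were identical to the reported ones, as those of a gene with 1 probe set must be under the mean or the brightest probe set. Of the 138 that differed, 134 moved by less than the wider pooled SD between probe sets (1.41, 1.31 and 1.28) and 4 by more. A smaller shift can still turn a sign, as for CYCS in NGP over IMR-32, from 1.00 to -0.11 with the brightest probe set. The called values, all of DIABLO, kept their sign, but with 1 probe set they had little room to change. Uncalled values that turned sign include CYCS in NGP over the Reference, from 1.45 to -0.38 with the brightest probe set. Without _s_at and _x_at probe sets, BIRC5 in IMR-32 over the Reference went from 0.57 to -1.08. DIABLO had ratios from 2.14 to 2.53 in NGP over the Reference and from 2.08 to 2.19 in NGP over IMR-32. Its calls depend on the cut-off: with cut-offs taken from every probe set, the number of overexpressed genes among the 10 was 0 in both comparisons, and with the top 5% it was 0 in NGP over IMR-32. With log2(signal + 32) it was 2 in NGP over the Reference, DIABLO and CYCS, and 1 gene, BIRC2, was underexpressed in NGP over IMR-32, as also with the bottom 10%. Of the pathway partners, log2(signal + 32) made 2 overexpressed in NGP over the Reference (ANP32A and AURKB), 1 in IMR-32 over the Reference (ANP32A) and 2 in NGP over IMR-32 (AIFM1 and AURKB). The top 10% made 1 overexpressed in IMR-32 over the Reference (ANP32A), and the brightest probe set made 1 underexpressed in NGP over IMR-32 (SEPTIN4, -2.84). Without _s_at and _x_at probe sets, 5 of the 10 genes, DIABLO among them, had no value, and CASP9 passed the upper cut-offs in NGP (2.19 and 3.04) from its dim probe set. Median-centring moved ratios over the Reference up by 0.22 to 0.23, which turned the sign of values near 0 (HTRA2 in IMR-32, BIRC5 in NGP and XIAP in both), for which no direction is given. For the neighbours of DIABLO, BIRC2 and CASP9, every median moved by less than the SD between those neighbours, which is a wide measure for a median. The BIRC2 neighbours' median in NGP over the Reference went from -1.05 to -2.18 without dim probe sets. In NGP over IMR-32 it was below 0 without dim probe sets (-0.64), with the brightest probe set (-0.59) and with 20 on each side (-0.12). No paired analysis was possible because each group has 1 array. The dimmest signals limit what can be said of BIRC7, APAF1 and CASP9.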
